A study of Mus musculus with 4 samples.

Results

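The transcription factor NRF2, its inhibitor KEAP1 and 7 genes of the cellular antioxidant response were read in 3D-cultured mouse mammary cells treated with baicalin, a plant flavonoid glucuronide. The 9 genes, Nfe2l2 (the gene of NRF2), Keap1, Nqo1, Hmox1, Txnrd1, Srxn1, Osgin1, Txn1 and Prdx1, were chosen by symbol from the 54446 genes of the expression table, and all 9 were found. The cells were sorted from mammary glands of wild type C57BL/6 females, labelled basal cell (the outer layer of the mammary epithelium) or luminal cell (the inner layer), embedded in Matrigel, and cultured with either DMSO, the vehicle, or 100 μM baicalin. Each of the 4 conditions has 1 library, made from poly(A) RNA. The methods describe glands of young adult virgin females or of females at other stages and do not say which of these were used for the libraries. The number of animals and the passage are not given in the sources used here. Levels are FPKM, fragments scaled to the exon length of the gene and to the fragments counted in the library, so that genes of different length can be compared.

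NRF2 is held in the cytoplasm by KEAP1, which hands it to a CUL3 ubiquitin ligase for degradation. Electrophiles and oxidants modify cysteines of KEAP1, NRF2 then escapes and enters the nucleus, pairs with a small MAF protein and binds antioxidant response elements near its target genes. The control thus acts largely on the NRF2 protein, which RNA does not measure. Targets include NQO1, which reduces quinones, HMOX1 (haem oxygenase), which breaks haem down to biliverdin, carbon monoxide and iron, and the thioredoxin branch, in which the peroxiredoxin PRDX1 removes peroxides, thioredoxin (Txn1) reduces it, thioredoxin reductase (Txnrd1) recharges thioredoxin with NADPH, and sulfiredoxin (Srxn1) rescues over-oxidised peroxiredoxin. OSGIN1 is an oxidative stress-induced growth inhibitor.

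The core letters of the antioxidant response element, TGACNNNGC, were looked for on both strands of windows of 300 bases around the RefSeq start sites (GRCm38.p6), most of which lie upstream. Windows were found for 8 of the 9 genes, and there was none for Hmox1. Of these, 4 had 1 match each, and the windows of Keap1, Nqo1, Osgin1 and Txn1 had none. The matches are shown because these letters are the known contact of NRF2, and the genes are a list of NRF2 targets and regulators, so this is not an independent feature. Of all 27025 genes with a window, 3781 had a match in at least 1 window, and of all 32851 windows 12.4% did. Each line reads 5′ to 3′ on the strand of the gene, with the match in capitals, which reads TGACNNNGC on the opposite strand in all but Nfe2l2.
Nfe2l2, chr2:75704865-75704913, minus strand: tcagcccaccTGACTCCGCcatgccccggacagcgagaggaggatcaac
Txnrd1, chr10:82859084-82859152, plus strand: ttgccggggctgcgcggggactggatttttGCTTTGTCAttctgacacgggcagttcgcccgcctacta
Prdx1, chr4:116685436-116685504, plus strand: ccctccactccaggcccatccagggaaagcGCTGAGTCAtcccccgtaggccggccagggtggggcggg
Srxn1, chr2:152105542-152105570, plus strand: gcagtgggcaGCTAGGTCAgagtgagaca

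Counted from the start, with -1 the base before it, the match began at position -240 in Nfe2l2, -133 in Prdx1 and -92 of the second of 3 start sites of Txnrd1. In Srxn1 it began at position 29, after the start. The Prdx1 match overlaps the letters TGANTCA, those of an AP-1 site, which stood in 7.81% of all windows and also in the windows of Srxn1 and Osgin1, apart from any TGACNNNGC. A match is a description of these letters and not a measured binding site, and elements that lie further from the start were outside the windows.

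Between 19356103 and 20648788 fragments were counted per library, as recovered from the steps of the FPKM values, and all 36 values of the 9 genes came out as whole fragments within 0.1. Cell type markers went against the labels. The summed FPKM of 10 basal markers was 1830 and 533 in the libraries labelled basal and 5470 and 7340 in those labelled luminal, with DMSO and baicalin in that order, and all 10 were higher under the luminal label with either treatment. The 10 luminal markers, keratins and epithelial genes, summed to 4600 and 3200 under the basal label and to 1470 and 1270 under the luminal label. The libraries are therefore named by their labels throughout. With 1 library per condition there was no replicate of any condition and no test between conditions was made. A fit over both labels with the label as a block would leave 1 residual degree of freedom and was not run. That degree of freedom is the difference of the baicalin change between the labels. Intervals are 95% intervals that cover counting error only, and a difference between cultures and an effect of baicalin cannot be told apart. In bulk RNA, more cells that express a gene and more RNA per cell cannot be told apart either.

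With baicalin, Nqo1, Hmox1, Srxn1 and Osgin1 were higher in the libraries of both labels, between 2.64-fold and 5.80-fold, while Nfe2l2 was higher by 1.39-fold and 1.16-fold and Keap1 stayed within its counting error. Changes across genes are log2((FPKM + 1)/(FPKM + 1)) over the 17787 genes detected in each of the 4 libraries (FPKM above 0), which include all 9. Of the 9 genes, 7 were higher by any amount under the basal label, against 50.9% of all genes tested, and 8 under the luminal label, against 45.6%. A log2 change above 1 was seen in 4 of the 9 under the basal label, where 2.15% of all genes tested had one, and in 4 under the luminal label, where 2.37% had one. These shares of all genes depend on the 1 FPKM added: with 0.1 added they were 6.31% and 5.91%, and with none 9.52% and 8.76%, while the members' counts stayed at 4. They were the same 4 genes, and 106 genes in all, 0.596% of those tested, were higher by more than 1 with both labels. None of the 9 was lower by more than 1, against 3.33% of all genes with the basal label and 1.59% with the luminal label. The median log2 change of the 9 genes was 0.85 and 0.44, and that of all genes 0.01 and -0.02.

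**Figure D1:**
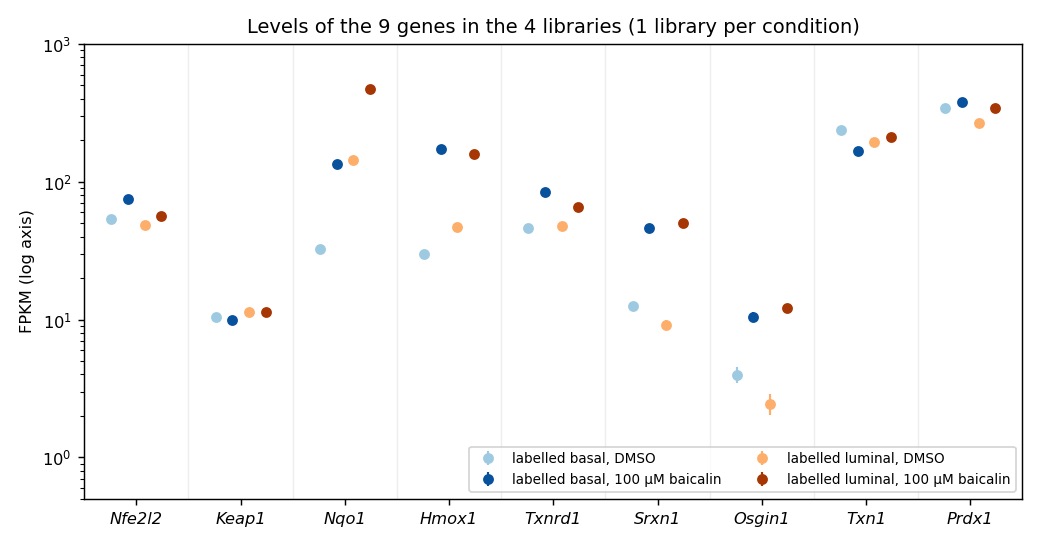
FPKM of the 9 genes (log axis) in the 4 libraries, with 95% counting intervals, most of them smaller than the points. Nqo1, Hmox1, Srxn1 and Osgin1 lie higher in both baicalin libraries than in the DMSO library of the same label, and Nqo1 spans the widest range, from 32.3 to 470 FPKM.

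The controller and its inhibitor moved little. Nfe2l2 (ENSMUSG00000015839, chromosome 2, 75675513 to 75704641, minus strand) had 53.6 FPKM with DMSO and 74.5 with baicalin under the basal label, and 48.8 and 56.8 under the luminal label. The ratios were 1.39 (1.33 to 1.45) and 1.16 (1.11 to 1.22), and 10.9% and 20.2% of all genes tested had a larger log2 change. Nfe2l2 RNA was thus already among the more abundant RNAs without baicalin, with 4.41% and 4.87% of the genes tested at a higher FPKM in the DMSO libraries. Keap1 (ENSMUSG00000003308, chromosome 9, 21229730 to 21239361, minus strand) had 10.5, 9.90, 11.4 and 11.3 FPKM in the libraries labelled basal with DMSO and baicalin and luminal with DMSO and baicalin. Its ratios were 0.940 (0.859 to 1.03) and 0.992 (0.910 to 1.08), so both intervals held 1 and a fall beyond 0.859 or a rise beyond 1.08 lay outside them. The antisense gene Gm16754 shares 510 of the 4693 exon bases of Keap1 and had at most 4 fragments in any library.

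Nqo1, NAD(P)H quinone dehydrogenase (ENSMUSG00000003849, chromosome 8, 107388225 to 107403206, minus strand), had 32.3 FPKM with DMSO and 135 with baicalin under the basal label, and 143 and 470 under the luminal label. The ratios were 4.16 (3.89 to 4.47) and 3.28 (3.17 to 3.39). In FPKM the DMSO library labelled luminal, at 143 (139 to 148), stood above the baicalin library labelled basal, at 135 (131 to 139), and the rounded intervals touched. Scaled to TPM the values were 484 and 478. No interval was computed on that scale, so this order was not resolved there. With baicalin under the luminal label Nqo1 was the highest of the 9 genes, above Prdx1, and 55 of the 17787 genes had a higher FPKM, whereas 1525 did in the DMSO library labelled basal.

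Hmox1 (ENSMUSG00000005413, chromosome 8, 75093621 to 75100589, plus strand) had the largest change of the 9 genes under the basal label, from 29.7 to 173 FPKM, a ratio of 5.80 (5.43 to 6.20). Only 16 of the genes tested, 0.0900%, had a larger log2 change there. Under the luminal label it went from 46.9 to 160 FPKM, a ratio of 3.41 (3.23 to 3.61). In the order of the 9 genes it stood sixth with DMSO under both labels, where its interval met that of the gene above it, Nqo1 or Txnrd1. With baicalin it stood second under the basal label, where its interval met that of Txn1, and below Nqo1, Prdx1 and Txn1 under the luminal label. Immune markers were read beside Hmox1, which macrophages also express. The sort stained for CD31, CD45 and TER119, markers of endothelial, immune and red blood cells, beside CD24 and CD29. Ptprc (CD45), Adgre1, Itgam and Cd3e had between 0 and 5 fragments in every library, and Csf1r had between 4 and 39. Cd14 went from 68.9 to 43.9 FPKM and Cd68, a lysosomal membrane protein, from 7.49 to 51.5 FPKM with baicalin under the basal label, and from 10.4 to 8.41 and from 4.44 to 13.7 FPKM under the luminal label. The 8 immune markers summed to 77.9 and 96.2 FPKM under the basal label and to 15.5 and 23.6 under the luminal label, mostly Cd14 and Cd68. With baicalin 1 of 8 and 5 of 8 of them were higher, against 50.9% and 45.6% of all genes tested. Only 4 of the 8 were detected in each library, and the others had too few fragments for a direction to mean much. The part of the immune markers in the Hmox1 values was not tested.

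Srxn1, which repairs peroxiredoxins (ENSMUSG00000032802, chromosome 2, 152105516 to 152111376, plus strand), had 12.5 and 46.2 FPKM with DMSO and baicalin under the basal label and 9.18 and 50.4 under the luminal label. The ratio was 3.70 (3.40 to 4.02) with the first and 5.49 (4.99 to 6.04) with the second, the largest of the 9 under the luminal label, where 36 genes had a larger log2 change. Osgin1 (ENSMUSG00000074063, chromosome 8, 119434124 to 119446256, plus strand) was the lowest of the 9 in both DMSO libraries, with 3.96 and 2.43 FPKM, and had 10.5 and 12.1 FPKM with baicalin. The ratios were 2.64 (2.25 to 3.11) and 4.95 (4.09 to 6.04). Under the luminal label the ratio intervals of Srxn1 and Osgin1 overlapped, so which of these ratios was the larger was not resolved. With baicalin the interval of Osgin1 met that of Keap1 under both labels, so their order was not resolved. Because 1 FPKM is added before the logarithm, the log2 changes of Osgin1, 1.21 and 1.93, understate its ratios.

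**Figure D2:**
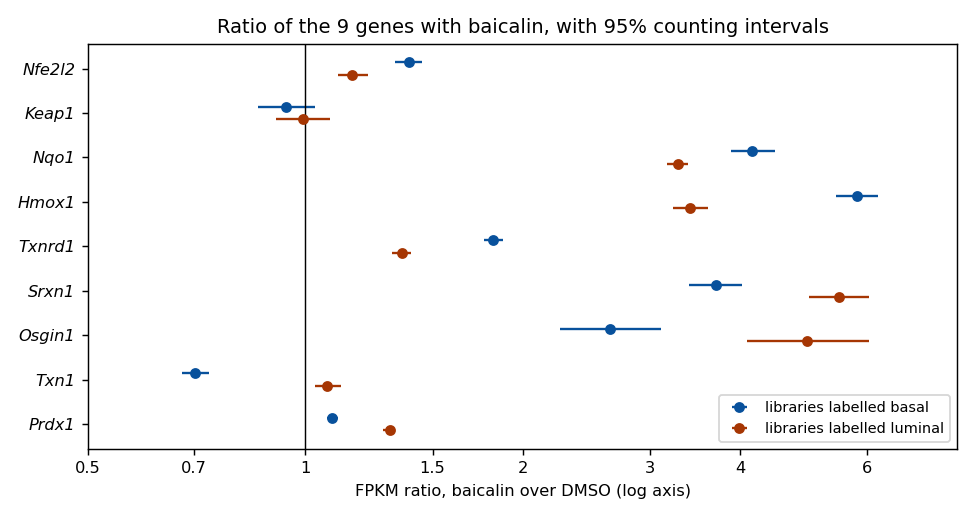
FPKM ratio of baicalin over DMSO for each of the 9 genes (log axis) with its 95% counting interval, in the libraries labelled basal and luminal; the line marks a ratio of 1. The intervals of Keap1 cross 1 under both labels, and Txn1 lies below 1 under the basal label alone, at 0.704.

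The members that recharge or carry reducing power changed less than these 4. Txnrd1 (ENSMUSG00000020250, chromosome 10, 82833951 to 82897712, plus strand) went from 46.0 to 83.7 FPKM under the basal label, a ratio of 1.82 (1.77 to 1.88), and from 48.0 to 65.3 under the luminal label, a ratio of 1.36 (1.32 to 1.40). Its log2 changes of 0.85 and 0.44 stayed under 1. Prdx1 (ENSMUSG00000028691, chromosome 4, 116685544 to 116700822, plus strand) was the most abundant of the 9 in every library but the baicalin library labelled luminal, with 346 and 378 FPKM under the basal label and 265 and 346 under the luminal label. The ratios were 1.09 (1.07 to 1.11) and 1.31 (1.28 to 1.33). Txn1 (ENSMUSG00000028367, chromosome 4, 57943373 to 57956411, minus strand) was lower with baicalin under the basal label, from 236 to 166 FPKM, a ratio of 0.704 (0.674 to 0.735). Under the luminal label it went from 195 to 210 FPKM, a ratio of 1.07 (1.03 to 1.12). It was the 1 member of 9 whose change had opposite signs under the 2 labels, as 40.6% of all genes tested had. Processed pseudogenes nearly identical to these genes were counted as genes of their own. They held between 1.43% and 2.13% of the fragments of Prdx1 and its copies Gm7204 and Gm21399, and between 0.141% and 0.301% of those of Txn1 and its copy Txn-ps1. Adding them left each log2 change within its counting interval.

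Summed as TPM, which rescales FPKM to the same total in each library, the 9 genes took 2800 TPM with DMSO and 3820 with baicalin under the basal label, and 2600 and 4670 under the luminal label. Nqo1, Hmox1, Srxn1 and Osgin1 together went from 285 to 1290 and from 681 to 2340 TPM. Txn1 and Prdx1 together went from 2120 to 1930 and from 1550 to 1880 TPM, so that the Txn1 and Prdx1 sum was the larger part with DMSO under both labels, and the smaller part with baicalin under the luminal label.

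**Figure D3:**
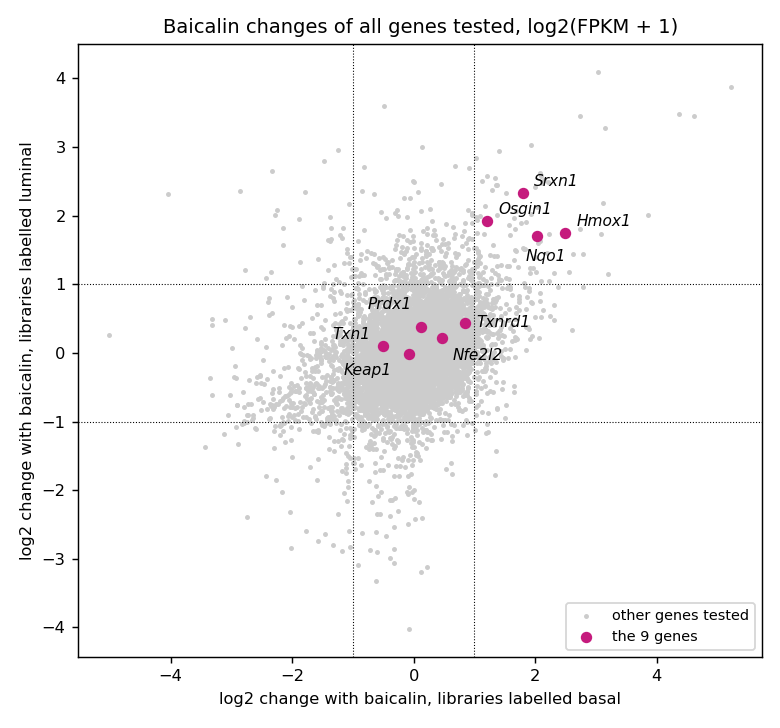
Log2 change with baicalin under the basal label (x axis) against that under the luminal label (y axis) for the 17787 genes tested, on the log2(FPKM + 1) scale, with the 9 genes named; dotted lines mark changes of 1 and -1. Nqo1, Hmox1, Srxn1 and Osgin1 lie beyond 1 on both axes, with 106 genes in all, and the other 5 lie inside the cloud.

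The size of the change differed between the labels by more than counting error for 8 of the 9 genes, all but Keap1, as it did for 48.0% of all genes with recovered fragments. Among the genes with at least 126 fragments in each library, the lowest value of a member and a limit chosen after the values were seen, 64.0% differed so. None of these differences was tested against the spread between cultures. Hmox1 had the larger ratio under the basal label, 1.70 times (1.56 to 1.85) that under the luminal label, and so had Txnrd1 (1.34, 1.28 to 1.40), Nqo1 (1.27, 1.18 to 1.37) and Nfe2l2 (1.19, 1.12 to 1.27). The ratio was larger under the luminal label for Osgin1, by 1.87 times (1.46 to 2.40), Txn1 (1.52, 1.44 to 1.62), Srxn1 (1.48, 1.31 to 1.68) and Prdx1 (1.2, 1.16 to 1.23). On the log2 scale none of the 9 differences exceeded 1, against 4.41% of all genes tested with a larger change under the luminal label by more than 1 and 2.65% with a smaller one. Beside these values, 1 of 10 basal markers was higher with baicalin under the basal label and 6 of 10 were under the luminal label. Over all genes tested, 50.9% and 45.6% were higher. Under the luminal label the other 4 basal markers were lower, 3 of them by more than 1, and 1 was higher by more than 1. The basal keratin Krt5 went from 128 to 3.01 FPKM and from 2010 to 2410 FPKM. Of 10 luminal markers, 7 were lower with baicalin under the basal label and 8 under the luminal label. The part of such shifts in the values of the 9 genes was not tested.

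Between the labels, Nqo1 was the member that stood apart. With DMSO it was higher under the luminal than under the basal label by 4.43-fold (4.14 to 4.75), and with baicalin by 3.49-fold (3.37 to 3.61). Of the 9 genes, 4 were higher under the luminal label with DMSO and 5 with baicalin, against 52.5% and 45.2% of all genes tested. Nqo1 was the 1 member of 9 with a log2 difference above 1 in either comparison, where 4.71% and 5.24% of all genes tested had one, and none was below -1, where 3.86% and 2.99% were. For Hmox1, Srxn1 and Osgin1 the libraries of the 2 labels lay closer with baicalin than with DMSO, as they did for Nqo1 and Prdx1. The ratio of the luminal over the basal label of Hmox1 was 1.58 (1.46 to 1.71) with DMSO and 0.927 (0.894 to 0.961) with baicalin, that of Srxn1 0.735 (0.654 to 0.826) and 1.09 (1.03 to 1.15), and that of Osgin1 0.615 (0.489 to 0.771) and 1.15 (1.03 to 1.29). For Hmox1, Srxn1 and Osgin1 the order of the labels turned. Scaled to TPM, the log2 differences with baicalin were 0.06 for Srxn1 and 0.13 for Osgin1, against 0.12 and 0.19. No interval was computed on that scale, so the turn of these genes was not resolved there. The order also turned for Txn1, with ratios of 0.828 (0.794 to 0.863) and 1.26 (1.21 to 1.32). For Txnrd1 it turned as well, with 1.04 (1.01 to 1.08) and 0.781 (0.760 to 0.802). The DMSO ratio of Txnrd1 was, however, below 1 when values were scaled to TPM, with a log2 change of -0.04. Prdx1 was lower under the luminal label with either treatment, with ratios of 0.766 (0.750 to 0.782) and 0.915 (0.899 to 0.932). Nfe2l2 was lower under the luminal label with either treatment, with ratios of 0.909 (0.869 to 0.951) and 0.761 (0.732 to 0.792). The Keap1 ratio was 1.08 (0.993 to 1.18) with DMSO and 1.14 (1.05 to 1.25) with baicalin.

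**Figure D4:**
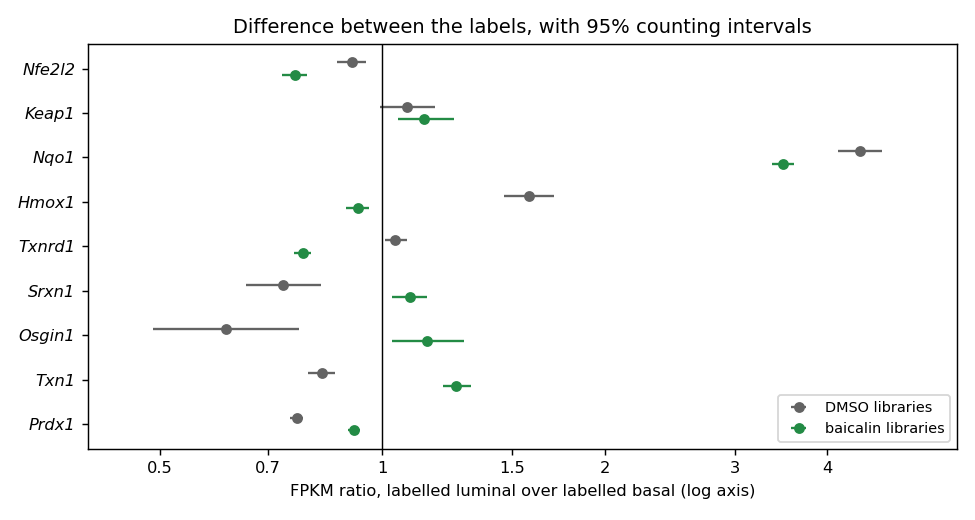
FPKM ratio of the libraries labelled luminal over those labelled basal (log axis) for each of the 9 genes, with DMSO and with baicalin, with 95% counting intervals; the line marks a ratio of 1. Nqo1 lies at 4.43 and 3.49, and like Nqo1, Hmox1, Srxn1, Osgin1 and Prdx1 lie nearer to 1 with baicalin than with DMSO.

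Genes that surround the NRF2 pathway were read from lists chosen by function. Of all genes tested, 2.15% were higher by more than 1 under the basal label and 2.37% under the luminal label. Lower by more than 1 were 3.33% and 1.59%. With no FPKM added, 9.52% and 8.76% were higher. None or 1 gene past 1 in lists this short lies near these shares, and no list was tested against them. Of 17 genes that control NRF2, 1 was higher by more than 1 under the basal label and 2 under the luminal label, and none was lower by more than 1. Sqstm1 encodes p62, an autophagy receptor that binds KEAP1, and went from 205 to 590 FPKM under the basal label and from 110 to 237 under the luminal label. Nfe2l3, a relative of NRF2, had log2 changes of 0.58 and 1.15. The 3 small MAF genes, NRF2's partners, had ratios from 1.25 to 1.85. Mafg went from 16.8 to 29.1 FPKM and from 16.9 to 22.8 FPKM. Bach1, a repressor that competes with NRF2 at Hmox1, had ratios of 1.18 (1.10 to 1.26) and 1.17 (1.11 to 1.24), and Cul3, the ligase scaffold, 0.911 (0.872 to 0.951) and 1.01 (0.961 to 1.05). None of 10 relatives of KEAP1 was past 1 in either direction.

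In the thioredoxin system, under the basal label, 3 of 21 genes had a log2 change above 1 and 1 had a change below -1. Under the luminal label 1 was above 1 and none below -1. Sesn2, a stress-induced sestrin, went from 6.45 to 28.1 FPKM and from 10.6 to 26.2 FPKM. Prdx6, a peroxiredoxin that uses glutathione, went from 42.5 to 101 FPKM and from 36.3 to 58.4 FPKM. Prdx4, the peroxiredoxin of the endoplasmic reticulum, was lower, with log2 changes of -1.50 and -0.85. Txnip, which binds and inhibits thioredoxin, went from 13.2 to 35.8 FPKM under the basal label and from 242 to 138 FPKM under the luminal label. The mitochondrial partners Txn2 and Txnrd2 had ratios between 1.01 and 1.18. None of 7 genes of the machinery that inserts selenocysteine, the residue in the active site of thioredoxin reductase, was past 1.

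Beside Hmox1, the haem list had 3 of 16 genes higher by more than 1 under the basal label and 1 under the luminal label, and none lower. Slc48a1, which carries haem out of lysosomes, went from 34.1 to 139 FPKM and from 30.7 to 82.5 FPKM. Blvrb, a biliverdin reductase, went from 2.10 to 11.4 FPKM and from 7.37 to 11.1 FPKM, and the haem-binding Hebp1 from 2.09 to 5.89 and from 2.09 to 5.17 FPKM. Hmox2, the haem oxygenase that most cells express constitutively, had ratios of 0.990 (0.901 to 1.09) and 0.928 (0.844 to 1.02). Among 12 genes of quinone and carbonyl reduction, 3 were higher by more than 1 under each label and none was lower by more than 1. They were not the same 3 genes. Ephx1 was past 1 under the basal label alone, with log2 changes of 1.73 and 0.74. Akr1b8 was past 1 under the luminal label alone, with 0.2 and 1.03. Aldh3a1, an aldehyde dehydrogenase, went from 65.7 to 254 FPKM and from 24.2 to 206 FPKM, and Cbr3, a carbonyl reductase, from 2.57 to 31.8 and from 22.7 to 51.4 FPKM. Nqo2, the relative of Nqo1, had ratios of 0.729 (0.627 to 0.848) and 1.10 (0.915 to 1.32).

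Of 12 genes that remove peroxide and superoxide, 1 was higher by more than 1 under the basal label, and 2 were higher and 1 lower under the luminal label. Catalase (Cat) went from 64.0 to 245 FPKM and from 58.9 to 134 FPKM. Gpx2, an epithelial glutathione peroxidase, went from 9.41 to 11.9 FPKM under the basal label and from 65.9 to 149 under the luminal label, and the secreted Gpx3 from 3.42 to 2.53 and from 12.2 to 1.28. The list medians lay between -0.15 and 0.63 over both labels, with the highest in quinone and carbonyl reduction under the luminal label.

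**Figure D5:**
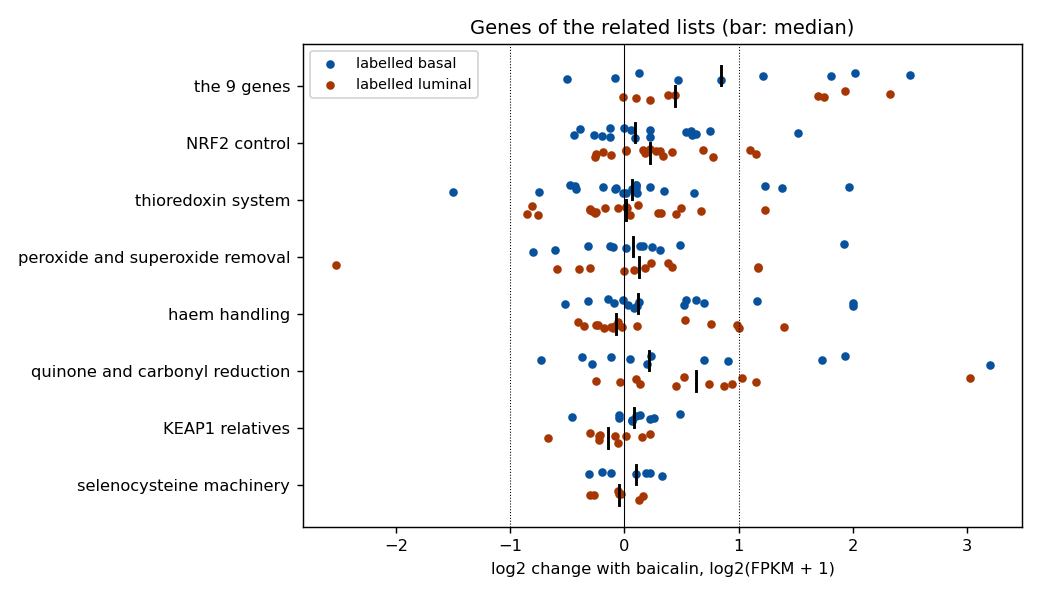
Log2 change with baicalin on the log2(FPKM + 1) scale for each gene of the 9 and of 7 related lists, under the basal and the luminal label, with the median as a bar. The 9 genes have medians of 0.85 and 0.44, and the KEAP1 relatives and the selenocysteine genes lie within 1 of no change.

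The genes most like each member over the 4 libraries were found by the Euclidean distance between profiles of log2(FPKM + 1), each centred on its own mean, among the 9185 genes that reached 5 FPKM in some library. The nearest profiles over 4 points are a description. Txnrd1 had Arl2, Krtcap2 and Mafg as its nearest genes, Mafg at a distance of 0.07. Srxn1 lay nearest to Slc6a9, a glycine transporter, at 0.22, which had 6.96, 31.5, 6.20 and 30.4 FPKM in the libraries labelled basal with DMSO and baicalin and luminal with DMSO and baicalin. Osgin1 lay nearest to Procr, the gene of the protein C receptor, at 0.24, with 4.14, 12.3, 2.19 and 11.8 FPKM in the same order. Nqo1 had no close neighbour, and the nearest was Gsta3, a glutathione S-transferase, at 0.62. The nearest row to Hmox1 was that of the short miRNA gene Mir378a, at 0.28 and at most 5.23 FPKM, and the nearest protein-coding gene was Vnn1, a pantetheinase, at 0.49. Nfe2l2, Keap1, Txn1 and Prdx1, which had smaller changes, each had genes within 0.03, such as Tnpo2, Cops6, Vcp and Snx19. Among the 9 themselves, the closest pair was Nfe2l2 and Prdx1, at 0.27, and among the 4 genes past 1 it was Srxn1 and Osgin1, at 0.51.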

How the data were processed

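RNA-seq was performed on 3D-cultured cells, 1 stranded poly(A) library per condition. The authors mapped reads with HISAT2 to GRCm38, obtained gene counts from an Ensembl annotation by featureCounts, and deposited FPKM. The submitters' processing notes also name Bowtie 0.12.2 and the build mm8, with no role. The strand setting is not given in the sources used here, so reads of Keap1 and its antisense gene cannot be told apart. Exon lengths and positions came from GENCODE mouse release 21 (GRCm38), with a length for 54409 genes. The product of FPKM and exon length took steps worth 1 fragment, from which depths and fragments were recovered. Of genes with low counts, 98.7% to 98.9% came out whole within 0.1 of a fragment. At these depths 1 fragment on 1 kb of exons was worth 0.0484 to 0.0517 FPKM. Fragments served for exact Clopper-Pearson intervals on ratios, exact Poisson intervals on levels and delta-method intervals on ratios of ratios, at 95% and for counting error only.

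As in the study's methods, only genes above 0 FPKM in each library were kept. The study's t-test needs replicates and was not run. A change was called past 1 on the log2 scale with 1 FPKM added. Copies were transcripts of at least 95% identity over at least 200 bases (blastn 2.17.0), sought for the 9 genes only. The 9 genes, the lists and the alternatives were chosen with earlier results of these data known. Named were the 9 genes, at most the 4 largest changes past 1 in each list, and the 3 nearest profiles per member, of which not all are printed. Relatives and partners of the members (the small MAF genes, Bach1, Cul3, Txn2, Txnrd2, Hmox2 and Nqo2) and the immune markers were named after their values were seen. The computation was tested on simulated counts that hold counting error only, which checks the arithmetic and not the variation between cultures. Python 3.11.15, numpy 2.4.6, pandas 2.3.3 and scipy 1.17.1 were used.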

Additional observations from a re-analysis of the deposited data

Results flagged for a closer look

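Txn1 and Txnip, thioredoxin and the protein that inhibits it, moved in opposite directions under the 2 labels, beyond counting error in each. The baicalin over DMSO ratio of Txn1 was 0.704 under the basal label and 1.07 under the luminal label. That of Txnip was 2.72 under the basal label and 0.570 under the luminal label. Opposite signs of any size stood in 40.6% of all genes tested. Other genes of the lists also had opposite directions beyond counting error under each label, so the pattern was not particular to this pair. With 1 library per condition, the difference between the labels was not tested.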

How the results depend on the processing

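The counts of members past 1 were the same under each alternative with 2 exceptions of the threshold: at 0.58 on the log2 scale, 5 members were higher with baicalin under the basal label, with Txnrd1 added, and 2 were higher under the luminal label with DMSO, with Hmox1 added. Over the alternatives Nqo1 ranged from 2.01 to 2.06 under the basal label and from 1.70 to 1.73 under the luminal label, Hmox1 from 2.49 to 2.54 and from 1.75 to 1.77, Srxn1 from 1.80 to 1.89 and from 2.33 to 2.46, and Osgin1 from 1.2 to 1.40 and from 1.93 to 2.31. Centring moved the log2 change of Keap1 under the luminal label from -0.01 to 0.01. Scaled to TPM, 11 log2 values of the members moved by more than their counting error and 34 did not. All that moved were differences between the labels, except the change of Prdx1 under the basal label, from 0.13 to 0.09. With DMSO, for example, that of Nfe2l2 went from -0.14 to -0.24 and that of Prdx1 from -0.38 to -0.49. The counting intervals thus do not cover a change of scaling. Counts over all genes moved more. In the order basal label, luminal label, DMSO libraries and baicalin libraries (the last 2 luminal label over basal label), the counts higher and lower by more than 1 were 383 and 592, 421 and 282, 837 and 686, and 932 and 531. With 0.1 FPKM added they were 1123 and 1302, 1052 and 913, 2027 and 1467, and 2030 and 1327. With none added they were 1693 and 2054, 1559 and 1537, 2872 and 1926, and 2632 and 2003. Scaled to TPM, where values are larger beside the added 1, they were 696 and 1002, 718 and 578, 1306 and 1279, and 1439 and 1083. At a threshold of 0.58 they were 1308 and 1401, 1135 and 1088, 2075 and 1783, and 1923 and 1702. No pairing by replicate number was possible because the groups compared share fewer than 2 replicate numbers. A fit over both labels with the label as a block, which pairs the treatments within each label, was not run. Depth limits the 9 genes little, with 126 fragments at the least, for Osgin1 in the DMSO library labelled luminal.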
